A study of Mus musculus with 6 samples.

Results

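Solute carriers are the membrane proteins that move sugars, amino acids, ions, lipids, vitamins and metabolites across cell membranes, and 174 genes of this class were expressed in the mouse small-intestinal organoids measured here. They were chosen by their measured level, as the protein-coding rows whose symbol begins with Slc and whose level, averaged over all 6 libraries, was at least 1 FPKM, the count of sequenced fragments scaled to transcript length and library depth. All Slc25a genes (the mitochondrial carriers), Slc7a11, Slc11a2 and Slc40a1 were left out by the rule, which removed 50 of the 385 protein-coding Slc rows, and a further 161 lay under 1 FPKM. Of these 161 genes, 33 were at 0 in every library and 114 had a mean under 0.1 FPKM. The full table held 53953 rows, of which 12913 reached 1 FPKM and were tested. The rule used the level over both groups together and not the contrast between them, so levels are given as a description and the contrast was tested. Just inside the limit were Slc17a9 at 1.07, Slc5a4b at 1.09 and Slc4a3 at 1.10 FPKM, and just outside it Slc15a1 at 0.980, Slc2a7 at 0.953 and Slc46a3 at 0.946 FPKM.

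The organoids are crypt cultures from the proximal small intestine of C57BL/6 wt (wild-type) mice, grown in Matrigel at passage 3 to 5. In 3 libraries they had received arachidonic acid, an omega-6 fatty acid and the precursor of the prostaglandins, for 3 days before passaging. In the 3 vehicle libraries they had received the vehicle. Ethanol is listed at 0.1% for all 6 libraries. RNA was extracted on day 3 after passaging, and the labels used here give no concentration for the fatty acid. The labels do not say whether replicates were separate mice or cultures, so each p-value measures only how these libraries vary, and that spread may be technical.

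Enterocytes take up nutrients with carriers in the brush border, most of them driven by the sodium or proton gradient, and pass them to the blood through other carriers in the basolateral membrane. The sodium gradient is kept by the basolateral sodium pump. Other solute carriers feed the cell itself with glucose and amino acids, export lactate, set the pH and the chloride of the cell, move zinc between compartments, or carry nucleotide sugars into the Golgi, where mucins and membrane proteins are glycosylated. Several carriers work only with a partner protein, as the amino acid exchangers of the Slc7 family do with the heavy chains Slc3a1 and Slc3a2.

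The depth implied by the values was 36.6 to 38.6 M fragments in the vehicle libraries and 35.6 to 50.8 M in the arachidonic acid libraries. On the first principal component of all tested genes, which held 85.2% of the variance, vehicle libraries had scores of -41.6 to -40.4, and treated replicates 2 and 3 had scores of 58.1 and 54.6, with replicate 1 of the treated group apart from them at 10.2. Epithelial markers (Epcam, Cdh1, Vil1, Krt8, Krt18 and Krt20) summed to 2245 to 2369 FPKM with vehicle and 3294 to 3783 FPKM with arachidonic acid. Within that list Krt8 (759 to 1632 FPKM on average) and Krt18 (272 to 770.0 FPKM) were higher, Epcam was lower (548 to 361 FPKM, log2 fold change -0.62, adjusted p = 0.017) and the other 3 did not pass. No fibroblast, immune or endothelial marker exceeded 0.455 FPKM in any library. The 5 enteroendocrine markers tested were all lower with arachidonic acid, and so were 3 of 4 Paneth cell markers and both tested goblet cell markers. Of 4 stem cell markers 1 was higher and 2 were lower, and no tuft cell marker exceeded 1.34 FPKM. Of the 9 tested genes for proteins that drive, escort or anchor carriers, 4 were higher and 3 lower. In bulk RNA, fewer cells of a type and less RNA per cell cannot be told apart, and this holds for every value below.

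The most abundant members over all libraries were the taurine carrier Slc6a6 at 310.6 FPKM, the amino acid exchanger heavy chain Slc3a2 at 292 FPKM and the glutamine carrier Slc1a5 at 279 FPKM. They were followed by the zinc and iron importer Slc39a14 at 182 FPKM, the sodium-potassium-chloride cotransporter Slc12a2 at 173 FPKM and the glucose carrier Slc2a1 at 119 FPKM. Levels ran down to 1.07 FPKM with a median of 14.4 FPKM, 11 members reached 100 FPKM and 36 lay under 5 FPKM.

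With arachidonic acid, 62 of the 174 members were higher and 36 were lower at an adjusted p under 0.05, and 76 did not pass. Together these calls covered 56.3% of the members, against a background of 40.2% of all 12913 genes tested (20.8% higher and 19.4% lower). The higher members made up 35.6% of the list and the lower ones 20.7%. By at least 1 log2 unit, 23 members were higher and 17 lower, where 6.02% and 3.66% of all genes were. The 2 groups of libraries did not overlap in 119 members (68.4%, against 55.0% of all genes), and the median log2 fold change was 0.09 for the members and -0.03 for all genes. A mean of at least 1 FPKM was reached only through the arachidonic acid group by 11 members, of which 7 were called higher (Slc9a4, Slc4a11, Slc12a4, Slc45a3, Slc35e4, Slc5a4b and Slc47a1), and only through the vehicle group by 4, all called lower (Slc5a11, Slc6a20a, Slc16a12 and Slc17a1). These could pass the filter only by being high in 1 group, so the split is also given for the 159 with a mean of at least 1 FPKM in both groups, of which 55 were higher and 32 lower. Among all genes 12238 had such means, of which 2414 were higher and 2327 lower. Without arachidonic acid replicate 1, the library that stood apart, 71 members were higher and 57 lower, and 3544 and 4176 of all 12913 genes. Leaving out 1 of the other 5 libraries gave 47 to 51 higher and 15 to 19 lower members, and 61 of the 98 calls were kept in all 5 cases. For all genes these fits gave 1721 to 1953 higher and 1270 to 1515 lower. The members summed to 4878, 5126 and 5095 FPKM in vehicle replicates 1 to 3 and to 5508, 6322 and 6219 FPKM in the arachidonic acid replicates. Over the 76 called members that changed by at least 0.5 on the log2 scale, replicate 1 stood at a median of 0.53 of the way from the vehicle mean to the mean of the other treated libraries in FPKM, and over all 3052 such genes at 0.58. Values below are given in the same order of replicates, and means are given ± SD over the 3 libraries of a group.

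**Figure D1:**
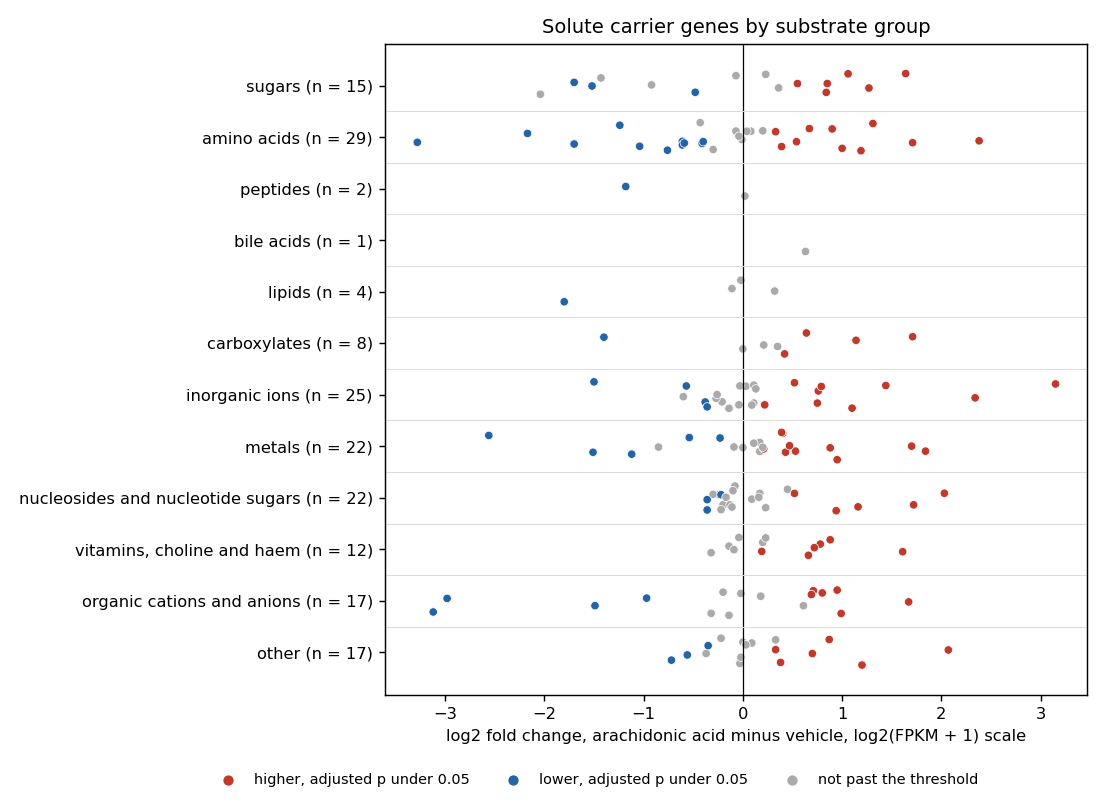
Log2 fold change of each of the 174 members, arachidonic acid minus vehicle on the log2(FPKM + 1) scale (horizontal axis), by substrate group with the number of members in brackets (vertical axis, points spread for legibility). Red points are members higher and blue points members lower at an adjusted p under 0.05, grey points did not pass; sugar and amino acid carriers lie on both sides, from -3.28 for Slc7a8 to 2.38 for Slc6a9, and no vitamin, choline or haem carrier is blue.

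Among the 15 sugar carriers, 6 were higher, 3 were lower and 6 did not pass, with a median log2 fold change of 0.23. The apical sodium-glucose cotransporter fell and the ubiquitous glucose carrier rose. Slc5a1, which takes glucose and galactose up from the lumen, was at 59.5, 80.7 and 71.3 FPKM with vehicle and 40.8, 16.2 and 13.5 FPKM with arachidonic acid. All 3 treated libraries lay below all vehicle libraries, replicate 1 nearest to them (log2 fold change -1.70 with SE 0.38, adjusted p = 0.014). Slc2a1, the facilitative carrier that supplies most dividing cells with glucose, was at 53.1, 67.9 and 49.1 FPKM with vehicle and 124, 216 and 206 FPKM after treatment (log2 fold change 1.64 with SE 0.23, adjusted p = 0.0031). The groups were well apart, and the call was kept in all 14 alternatives. Slc2a5, the apical fructose carrier, was at 17.8, 25.5 and 21.1 FPKM with vehicle and 17.3, 2.17 and 1.70 FPKM after treatment, and Slc2a2, the basolateral exit for glucose and fructose, at 11.4, 16.5 and 14.2 FPKM and 12.6, 3.05 and 2.08 FPKM. For both, arachidonic acid replicate 1 lay near the vehicle libraries and the other treated libraries far below them. Their adjusted p was 0.0538 for Slc2a5 and 0.067 for Slc2a2, and 2.1e-06 and 2.5e-05 without arachidonic acid replicate 1. Slc2a5 also passed as lower with limma-voom on recovered fragments and with quantile normalization (adjusted p = 0.038 and 0.0497). Slc2a7, a sugar carrier just under 1 FPKM and so no member, had 1.47, 2.38 and 1.09 FPKM with vehicle. After treatment it was listed at 0.776, 0 and 0 FPKM.

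The inositol carriers split. Slc5a11 (SMIT2) was at 2.45, 4.01 and 2.76 FPKM with vehicle and 1.51, 0 and 0.101 FPKM after treatment (log2 fold change -1.52 with SE 0.37, adjusted p = 0.018). Slc5a11 was a member only through the vehicle group. The count of 0 in replicate 2 allows a level of up to 0.083 FPKM (3 counts, counting error only). Slc5a3 (SMIT1) rose instead, from 2.40 ± 0.222 to 5.16 ± 0.703 FPKM (log2 fold change 0.85, adjusted p = 0.0037). Also higher were Slc5a9, which carries mannose, at 3.98 ± 1.20 and 7.82 ± 0.829 FPKM, and the urate carrier Slc2a9 at 4.02 ± 0.313 and 9.88 ± 3.49 FPKM (adjusted p = 0.012 and 0.016). Slc5a4b, a member of the sodium-glucose cotransporter family with a close paralogue, was at 0.167, 0.299 and 0.203 FPKM with vehicle and 1.96, 1.90 and 1.99 FPKM after treatment, so that it became a member only through the treated group. Inside the cell, the glucose-6-phosphate transporter of the endoplasmic reticulum, Slc37a4, fell from 58.7 ± 1.08 to 41.9 ± 1.92 FPKM (log2 fold change -0.48, adjusted p = 0.0025), whereas its relative Slc37a1 rose from 23.9 ± 1.55 to 35.6 ± 4.33 FPKM (0.55, adjusted p = 0.0081). The call of Slc5a11 was lost when any 1 library other than arachidonic acid replicate 1 was left out, that of Slc5a1 without vehicle replicate 2 or 3 and that of Slc2a9 without vehicle replicate 1 or 2 or arachidonic acid replicate 3, with adjusted p = 0.0503 to 0.067 over these fits.

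Absorptive enterocyte genes that are not carriers were measured beside these. Of 10 brush border hydrolases, which cut sugars and peptides at the apical surface, 6 were lower and 2 higher. Sucrase-isomaltase (Sis) was at 218, 301.5 and 262 FPKM with vehicle and 119.9, 9.26 and 8.51 FPKM after treatment, and lactase (Lct) at 7.67, 11.2 and 8.53 FPKM against 0.470, 0.0579 and 0 FPKM. The intestinal alkaline phosphatase Alpi was higher, at 21.9, 27.5 and 29.1 FPKM against 92.8, 112 and 71.3 FPKM. Over the 10 enterocyte markers, Alpi, Sis and Lct among them, 2 were higher and 4 lower, and their summed level was 1590 to 1972 FPKM with vehicle and 5393, 2554 and 2093 FPKM after treatment. That sum was led by Fabp1, a fatty acid binding protein, which was at 313 to 412 FPKM with vehicle and 4094, 1984 and 1617 FPKM with arachidonic acid. The part of these marker changes in the carrier results was not tested.

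Amino acid carriers were the largest group, with 29 members, of which 10 were higher, 11 lower and 8 not past the threshold (median log2 fold change -0.04). Slc6a19, the main sodium-coupled entry for neutral amino acids at the brush border, was at 12.2, 16.3 and 16.8 FPKM with vehicle and 10.46, 1.17 and 0.788 FPKM after treatment (log2 fold change -2.17 with SE 0.67, adjusted p = 0.04). Replicate 1 lay just under the lowest vehicle library and the other treated libraries far below it. Slc7a9, the exchange subunit for cystine and basic amino acids, was at 16.01, 19.6 and 19.1 FPKM and 15.3, 6.34 and 5.80 FPKM (log2 fold change -1.04, adjusted p = 0.042). Its heavy chain Slc3a1 was at 22.9, 28.6 and 26.2 FPKM and 22.4, 14.6 and 13.9 FPKM (-0.61, adjusted p = 0.038). In both, replicate 1 was less than 1 FPKM under the lowest vehicle library. Exons of Prepl, on the other strand, cover 26.5% of the exonic bases of Slc3a1, and the sources used here do not say whether counting used strand. The apical glutamate carrier Slc1a1 was at 1.82, 2.41 and 2.56 FPKM with vehicle and 2.47, 2.96 and 2.77 FPKM after treatment, with overlap (0.20, adjusted p = 0.27). Slc36a1, a proton-coupled carrier of small amino acids, was at 16.7, 16.8 and 16.2 FPKM and 15.5, 10.2 and 11.1 FPKM, without overlap (-0.43, adjusted p = 0.057), and it passed as lower with median-of-ratios scaling, with quantile normalization and without arachidonic acid replicate 1 (adjusted p = 0.0485, 0.038 and 0.00025). The proline carrier Slc6a20a fell from 2.74 ± 0.518 to 0.661 ± 0.704 FPKM (adjusted p = 0.016), but it was a member only through the vehicle group. Of the 28 amino acid carriers with a mean of at least 1 FPKM in both groups, 10 were higher and 10 lower.

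On the basolateral side, Slc7a8 (LAT2) is the exchanger through which neutral amino acids leave the enterocyte. It was at 22.2, 25.1 and 27.1 FPKM with vehicle and 6.32, 0.657 and 0.528 FPKM after treatment (log2 fold change -3.28 with SE 0.57, adjusted p = 0.0062). All treated libraries were below the vehicle range, and replicate 1 was the highest of them. Slc7a7 (y+LAT1), which exports basic amino acids, was at 49.1, 52 and 54.4 FPKM and 43.1, 37.4 and 36.6 FPKM (log2 fold change -0.40, adjusted p = 0.011), a smaller change. The aromatic amino acid carrier Slc16a10 (TAT1) and the branched-chain carrier Slc43a2 (LAT4) fell by 0.76 and 0.59 in log2 terms (adjusted p = 0.021 and 0.0475). The cationic amino acid carrier Slc7a2 fell from 7.07 ± 0.614 to 1.51 ± 0.510 FPKM (log2 fold change -1.70 with SE 0.16, adjusted p = 0.0011). Its relative Slc7a1, the common form of the carrier, had means of 82.2 ± 5.31 and 84.3 ± 4.11 FPKM (log2 fold change 0.04, adjusted p = 0.71). Further members past the threshold in this direction were Slc7a4 (-0.41) and the glutamate carrier Slc1a3 (-0.61).

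Of the 10 amino acid carriers that rose, Slc3a2 is the heavy chain (4F2hc) shared by, among others, Slc7a5, Slc7a6, Slc7a7 and Slc7a8. Slc3a2 was at 165, 161 and 151 FPKM with vehicle and 226, 487 and 563 FPKM after treatment (log2 fold change 1.31 with SE 0.32, adjusted p = 0.018). Slc7a5 (LAT1), which brings in leucine and other large neutral amino acids, was at 85.1, 79.5 and 76.9 FPKM and 104, 171 and 194 FPKM (log2 fold change 0.90, adjusted p = 0.018). In both, replicate 1 stood between the vehicle libraries and the other treated libraries, without overlap. So of the light chains named here for Slc3a2, Slc7a5 and Slc7a6 (0.39, adjusted p = 0.01) were higher and Slc7a7 and Slc7a8 lower. Slc6a9 (GlyT1), the glycine carrier, was at 7.42, 7.48 and 7.02 FPKM with vehicle and 16.9, 64.9 and 67.97 FPKM after treatment (log2 fold change 2.38 with SE 0.49, adjusted p = 0.011). Slc1a4 (ASCT1), an exchanger of alanine, serine and cysteine, was at 19.7, 21.7 and 18.6 FPKM and 29.6, 103 and 101 FPKM (log2 fold change 1.71, adjusted p = 0.025). Its close relative Slc1a5 (ASCT2), a glutamine carrier at a higher level, was at 294, 279 and 280.3 FPKM and 219.8, 292 and 307 FPKM, and the groups overlapped (-0.07, adjusted p = 0.67).

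All 3 called Slc38 members, sodium-coupled carriers of glutamine and other small neutral amino acids, were higher. Slc38a1 was at 23.1, 28.7 and 24.2 FPKM with vehicle and 49.3, 73.3 and 56.7 FPKM after treatment (log2 fold change 1.19 with SE 0.15, adjusted p = 0.0026), and every treated library was above every vehicle library. Slc38a6 rose from 4.54 ± 0.684 to 10.3 ± 2.67 FPKM and Slc38a2 from 37.8 ± 2.87 to 47.7 ± 1.93 FPKM (adjusted p = 0.0092 and 0.016). The osmolyte and energy carriers for taurine, Slc6a6, and creatine, Slc6a8, rose by smaller ratios from high levels, to 368 ± 40.3 from 253 ± 25.1 FPKM and to 70.1 ± 11.7 from 43.3 ± 0.616 FPKM (log2 fold changes 0.54 and 0.67, adjusted p = 0.0099 and 0.0073). The summed level of the 29 carriers was 1318, 1354 and 1376 FPKM with vehicle and 1458, 2049 and 2149 FPKM after treatment. In 8 of the 21 called members (Slc3a2, Slc7a5, Slc1a4, Slc6a19, Slc7a9, Slc3a1, Slc16a10 and Slc43a2) the call was lost when any 1 library other than arachidonic acid replicate 1 was left out, and in 3 more (Slc6a20a, Slc38a2 and Slc1a3) without some of these libraries, with adjusted p = 0.0505 to 0.15. Without arachidonic acid replicate 1, 10 were higher and 12 lower.

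**Figure D2:**
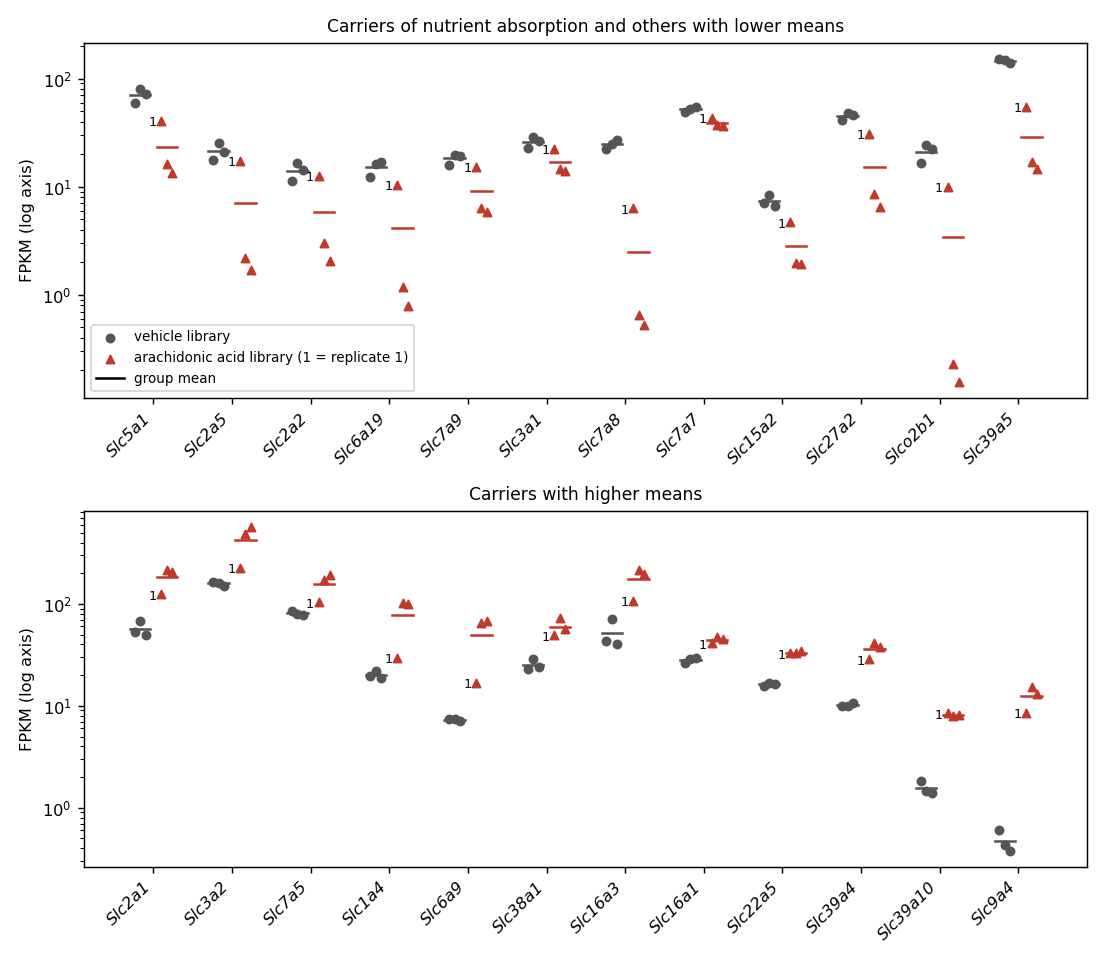
FPKM (log axis) of 24 members in each library, with grey circles for the 3 vehicle libraries, red triangles for the 3 arachidonic acid libraries (replicate 1 numbered) and bars for group means. In the upper panel replicate 1 of arachidonic acid sits between the vehicle libraries and the other treated libraries for 11 of the 12 members. For Slc2a2 it lies within the vehicle range. In the lower panel all treated libraries are above the vehicle libraries. Slc9a4, a member only through the treated group, was at least 8.59 against at most 0.605 FPKM.

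Carriers of the other classes of absorbed nutrient were few at this level. Of the 2 peptide carriers, Slc15a2 (PEPT2) was at 7.09, 8.34 and 6.56 FPKM with vehicle and 4.67, 1.98 and 1.92 FPKM after treatment (log2 fold change -1.18 with SE 0.27, adjusted p = 0.014). The groups did not overlap, and the call was lost without vehicle replicate 1 or 2 (adjusted p = 0.0532 and 0.056). The lysosomal Slc15a4 was at 15.8 ± 1.33 and 16.1 ± 0.473 FPKM (adjusted p = 0.85). The classical intestinal peptide carrier Slc15a1 (PEPT1) lay just under the limit, at 1.07, 1.53 and 0.972 FPKM with vehicle and 0.707, 1.02 and 0.577 FPKM after treatment, and was not tested. For bile acids the single member was Slc51a, 1 chain of the basolateral exporter, at 0.502, 0.821 and 0.859 FPKM and 2.58, 1.53 and 1.07 FPKM (log2 fold change 0.63, adjusted p = 0.066). Its groups did not overlap, but it was a member only through the treated group. Exons of Pcyt1a on the other strand cover 17.7% of its exonic bases. The partner chain Slc51b and the apical ileal carrier Slc10a2 stayed under 1 FPKM on average, at 0.862 and 0.466 FPKM over all libraries.

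Of the 4 lipid carriers, all of the Slc27 family of fatty acid transport proteins with acyl-CoA synthetase activity, 1 fell and 3 did not pass. Slc27a2 was at 41.1, 47.5 and 46.1 FPKM with vehicle and 30.7, 8.53 and 6.48 FPKM after treatment (log2 fold change -1.80 with SE 0.50, adjusted p = 0.028), with replicate 1 nearest to the vehicle libraries. Slc27a4, the main member of the family in the small intestine, was at 28.3, 28.6 and 24.01 FPKM and 39.6, 30.9 and 31.8 FPKM (log2 fold change 0.32, adjusted p = 0.068), with no overlap. Slc27a1 was at 37.3 ± 2.41 and 36.8 ± 2.69 FPKM and Slc27a3 at 2.42 ± 0.664 and 2.15 ± 0.404 FPKM, with overlapping groups. The call of Slc27a2 was lost when any 1 library other than arachidonic acid replicate 1 was left out (adjusted p = 0.078 to 0.089), and Slc27a4 passed after rescaling to TPM or scaling by median ratios (adjusted p = 0.038 and 0.044).

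Among the 8 carboxylate carriers, all of the Slc16 family, 4 were higher, 1 was lower and 3 did not pass, with a median log2 fold change of 0.39. Slc16a3 (MCT4), the proton-coupled lactate exporter of glycolytic cells, was at 43.4, 71.8 and 40.3 FPKM with vehicle and 108, 217 and 196 FPKM after treatment (log2 fold change 1.71 with SE 0.32, adjusted p = 0.0073). The lowest treated library was above the highest vehicle library, and replicate 1 was the lowest of the treated ones. Slc16a1 (MCT1), which carries lactate, pyruvate and short-chain fatty acids, was at 26.2, 28.8 and 29.5 FPKM and 40.96, 47.5 and 45.3 FPKM, a smaller rise with tight replicates (log2 fold change 0.64 with SE 0.08, adjusted p = 0.0024). Slc16a5 rose from 7.35 ± 1.99 to 17.1 ± 1.21 FPKM and Slc16a13 from 35.2 ± 1.23 to 47.4 ± 3.60 FPKM (adjusted p = 0.0034 and 0.0067). Slc16a12, which carries creatine, fell from 3.73 ± 0.493 to 0.817 ± 0.427 FPKM (log2 fold change -1.40 with SE 0.19, adjusted p = 0.0029). Slc16a6, which carries ketone bodies, was at 35.8 ± 3.72 and 46.1 ± 6.09 FPKM with an adjusted p of 0.0504, which passed in 4 of the 14 alternatives. Exons of Amz2, on the other strand, cover 21.5% of the exonic bases of Slc16a6. The 5 calls were kept when any 1 library was left out. Slc16a12 reached 1 FPKM only through the vehicle group, a pattern that the filter itself favours. Those fits kept the filter made on all 6 libraries, so for Slc16a12 they are no separate support. Of the 6 carboxylate carriers with a mean of at least 1 FPKM in both groups, 4 were higher and none was lower. Basigin (Bsg), the chaperone that Slc16a1 and Slc16a3 need to reach the membrane, was at 645, 691 and 627 FPKM with vehicle and 1120.0, 3024 and 2575 FPKM after treatment (log2 fold change 1.65, adjusted p = 0.011). The other chaperone, embigin (Emb), was at 1.15 and 0.932 FPKM on average (adjusted p = 0.38).

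Promoter windows were taken from RefSeq (GRCm38.p6, 250 bases before to 50 after each annotated start) for the members that the table held, 133 of the 174, with 180 windows. Both strands were searched for the letters ACGTGC, the core of the hypoxia response element, TGATGNAA, a form of the element read by ATF4-type factors under amino acid shortage, and CAAAGTCCA, a form of the site of the enterocyte and liver factor HNF4. ACGTGC stood in 14 member windows (7.78%) and in 5.91% of all 32851 windows of the same length, and the 12 members holding it divided into 5 higher, 3 lower and 4 not past the threshold. TGATGNAA stood in 3.89% of member windows and 3.97% of all windows, and its 6 members divided into 2 higher, 2 lower and 2 not past the threshold. For CAAAGTCCA the shares were 0.556% and 0.475%, with Slc3a1 the member. The members with these letters were thus not set apart by count. Windows are shown for called members of both directions, with the match in capitals, namely Slc2a1 and Slc16a3 (higher) and Slc39a8 (lower) with ACGTGC, Slc1a4 (higher) and Slc7a7 (lower) with TGATGNAA, and Slc3a1 (lower) with CAAAGTCCA. They are, 5′ to 3′ on the strand of the gene, chr4:119108495-119108794 (+) for Slc2a1, chr11:120948817-120949116 (+) for Slc16a3, chr3:135825407-135825706 (+) for Slc39a8, chr11:20332664-20332963 (-) for Slc1a4, chr14:54417895-54418194 (-) for Slc7a7 and chr17:85028097-85028396 (+) for Slc3a1.
Slc2a1: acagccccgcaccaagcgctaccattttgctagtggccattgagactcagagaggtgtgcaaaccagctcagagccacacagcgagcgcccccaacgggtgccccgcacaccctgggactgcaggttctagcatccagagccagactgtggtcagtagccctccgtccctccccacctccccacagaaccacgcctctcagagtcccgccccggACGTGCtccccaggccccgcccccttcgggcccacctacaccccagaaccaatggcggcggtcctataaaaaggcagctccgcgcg
Slc16a3: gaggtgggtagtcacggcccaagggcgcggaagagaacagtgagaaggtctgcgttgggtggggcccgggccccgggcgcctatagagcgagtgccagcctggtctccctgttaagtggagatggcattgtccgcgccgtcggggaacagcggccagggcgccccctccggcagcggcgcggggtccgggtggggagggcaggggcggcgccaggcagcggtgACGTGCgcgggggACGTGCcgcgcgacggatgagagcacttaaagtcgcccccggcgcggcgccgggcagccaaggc
Slc39a8: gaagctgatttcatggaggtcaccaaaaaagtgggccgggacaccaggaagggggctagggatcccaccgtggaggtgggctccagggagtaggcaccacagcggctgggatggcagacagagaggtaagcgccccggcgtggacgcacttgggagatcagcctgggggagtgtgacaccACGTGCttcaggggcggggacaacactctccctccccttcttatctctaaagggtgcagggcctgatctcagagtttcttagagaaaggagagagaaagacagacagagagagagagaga
Slc1a4: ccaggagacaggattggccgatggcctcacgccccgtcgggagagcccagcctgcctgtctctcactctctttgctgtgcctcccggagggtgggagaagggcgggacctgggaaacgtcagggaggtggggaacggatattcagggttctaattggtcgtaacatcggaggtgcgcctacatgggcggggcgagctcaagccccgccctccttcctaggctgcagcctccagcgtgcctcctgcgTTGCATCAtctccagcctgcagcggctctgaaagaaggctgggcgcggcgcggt
Slc7a7: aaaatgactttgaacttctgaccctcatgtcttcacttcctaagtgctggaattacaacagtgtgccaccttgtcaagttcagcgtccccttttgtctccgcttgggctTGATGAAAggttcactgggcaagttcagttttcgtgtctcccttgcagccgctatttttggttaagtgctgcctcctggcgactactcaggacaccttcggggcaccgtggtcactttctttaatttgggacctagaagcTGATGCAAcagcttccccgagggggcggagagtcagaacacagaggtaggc
Slc3a1: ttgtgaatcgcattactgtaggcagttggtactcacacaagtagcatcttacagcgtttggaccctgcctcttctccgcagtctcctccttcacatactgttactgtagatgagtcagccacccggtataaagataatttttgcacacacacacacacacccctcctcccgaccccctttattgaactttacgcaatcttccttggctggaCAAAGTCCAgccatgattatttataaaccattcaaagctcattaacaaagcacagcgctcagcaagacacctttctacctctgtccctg
In Slc2a1 the match begins 36 bases before the start, in Slc16a3 a pair of matches begins 27 and 14 bases before it, in Slc39a8 the match begins 70 bases before it, in Slc7a7 a pair begins 141 and 1 bases before it, and in Slc3a1 the match begins 39 bases before it. In Slc1a4 the match is on the opposite strand, so that the printed letters read TTGCATCA, beginning 4 bases before the start. These matches are descriptions of the sequence, and binding there was not measured.

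The 25 carriers of inorganic ions split into 9 higher, 4 lower and 12 not past the threshold (median log2 fold change 0.09). The 3 largest rises were in members that reached 1 FPKM only through the treated group, and among the other 22 there were 6 higher and 4 lower. Slc9a4 (NHE4), a basolateral sodium-proton exchanger best known from the stomach, was at 0.605, 0.432 and 0.381 FPKM with vehicle and 8.59, 15.5 and 13.1 FPKM after treatment (log2 fold change 3.15 with SE 0.21, adjusted p = 0.00041). Slc4a11, a borate transporter homologue that conducts protons or hydroxide, rose from 0.425 ± 0.0406 to 6.62 ± 2.79 FPKM, and the potassium-chloride cotransporter Slc12a4 from 0.144 ± 0.0641 to 2.19 ± 0.829 FPKM (log2 fold changes 2.34 and 1.44, adjusted p = 0.0022 and 0.0042). All 3 had vehicle libraries under 1 FPKM and treated libraries over it, a pattern that the filter itself favours. Their calls were kept when any 1 library was left out. Those fits kept the filter made on all 6 libraries, so they are no separate support.

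Of the brush border exchangers of sodium and chloride absorption, Slc9a3 and Slc26a3 did not pass in either direction with all libraries, and Slc9a2 was higher. Slc9a3 (NHE3) was at 5.98, 8.22 and 7.62 FPKM with vehicle and 10.2, 7.74 and 5.81 FPKM after treatment (log2 fold change 0.09, adjusted p = 0.74), and the chloride-bicarbonate exchanger Slc26a3 at 41.6, 51.6 and 53.02 FPKM and 51.3, 36.8 and 33.7 FPKM (-0.27, adjusted p = 0.23). The groups overlapped in both genes, with replicate 1 the highest treated library in each. Without that library Slc26a3 was lower (adjusted p = 0.0075). Slc9a2 (NHE2), the second apical sodium-proton exchanger, rose from 9.62 ± 0.951 to 17.6 ± 4.08 FPKM and the sulfate carrier Slc26a2 from 7.74 ± 0.135 to 17.9 ± 2.42 FPKM (adjusted p = 0.0096 and 0.0012). Slc12a2 (NKCC1), which loads the cell with chloride for secretion, was at 198, 201 and 220.3 FPKM and 164, 123 and 131 FPKM, all treated libraries below the vehicle range (log2 fold change -0.57 with SE 0.11, adjusted p = 0.0093). The potassium-chloride cotransporter Slc12a7 and Slc12a9 of the same family fell by 0.38 and 0.36 in log2 terms (adjusted p = 0.0061 and 0.0099).

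Sodium bicarbonate cotransporters moved in both directions. Slc4a4 (NBCe1) and Slc4a7 (NBCn1) rose from 22.3 ± 2.42 to 39.2 ± 11.5 and from 31.04 ± 4.29 to 53.1 ± 5.71 FPKM (adjusted p = 0.034 and 0.0048), and Slc4a5 (NBCe2) fell from 8.44 ± 1.11 to 2.73 ± 2.27 FPKM (log2 fold change -1.50, adjusted p = 0.022). The anion exchanger Slc4a2 (AE2), the most abundant of the family here, was at 121 ± 5.97 and 110.0 ± 4.70 FPKM (adjusted p = 0.13), and 13.7% of its exonic bases overlap Fastk on the other strand. The mitochondrial sodium-calcium exchanger Slc8b1 and the phosphate carrier Slc20a2 rose by 0.52 and 0.22 in log2 terms (adjusted p = 0.009 and 0.039), and the phosphate carrier Slc20a1 was at 54.3 ± 4.98 and 55.6 ± 6.04 FPKM (adjusted p = 0.83). The calls of Slc4a4, Slc4a5 and Slc20a2 were lost when any 1 library other than arachidonic acid replicate 1 was left out (adjusted p = 0.057 to 0.13). The main beta chain of the sodium pump, Atp1b1, was at 857 and 793 FPKM on average (adjusted p = 0.28).

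Metal carriers numbered 22, of which 10 were higher, 5 lower and 7 not past the threshold (median log2 fold change 0.18). The zinc importers of the Slc39 (ZIP) family held 6 higher and 3 lower of 12 members. Slc39a4 (ZIP4), the brush border zinc importer, was at 9.93, 10.04 and 10.7 FPKM with vehicle and 28.6, 41.2 and 37.3 FPKM after treatment (log2 fold change 1.70 with SE 0.13, adjusted p = 0.0007). Slc39a5 (ZIP5), the basolateral zinc importer, went the other way, at 152, 148 and 139.5 FPKM and 54.8, 16.97 and 14.5 FPKM (log2 fold change -2.56 with SE 0.45, adjusted p = 0.0064). In Slc39a4 and Slc39a5 all treated libraries lay beyond all vehicle libraries, with replicate 1 the closest to them. Slc39a10 (ZIP10) was at 1.82, 1.46 and 1.39 FPKM and 8.48, 7.89 and 8.09 FPKM, with replicate 1 the highest of the treated libraries (log2 fold change 1.84, adjusted p = 0.00041). Slc39a14 (ZIP14), which carries zinc, iron and manganese, rose from 128 ± 19.8 to 236 ± 38.9 FPKM, while Slc39a8 (ZIP8), with the same substrates, fell from 52.5 ± 3.92 to 24.3 ± 7.99 FPKM (adjusted p = 0.0058 and 0.0069). The remaining calls in the family were rises of Slc39a11 (0.53), Slc39a6 (0.47) and Slc39a1 (0.21) and a fall of Slc39a3 (-0.54).

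In the Slc30 (ZnT) family, which moves zinc out of the cytosol, Slc30a2 fell from 8.07 ± 0.372 to 2.30 ± 1.17 FPKM (log2 fold change -1.51, adjusted p = 0.0043) and Slc30a5 by 0.23 on the log2 scale. Slc30a10, a manganese exporter, rose from 3.84 ± 1.47 to 8.23 ± 1.95 FPKM (adjusted p = 0.023), and Slc30a7 and Slc30a9 rose by 0.43 and 0.40 on the log2 scale. Slc30a1, the zinc exporter of the plasma membrane, was under the limit, at 0.345 FPKM over all libraries. The copper importer Slc31a1 was at 39.3 ± 1.75 and 44.3 ± 1.86 FPKM (adjusted p = 0.084), and the magnesium carrier Slc41a1 rose by 0.39 on the log2 scale (adjusted p = 0.0086). Lost calls were those of Slc30a5 and Slc39a1 when any 1 library other than arachidonic acid replicate 1 was left out, of Slc30a10 without arachidonic acid replicate 2 or vehicle replicate 1 or 3, and of Slc39a6 without vehicle replicate 1 or 2 (adjusted p = 0.0523 to 0.14). The metal carriers summed to 672 to 708 FPKM with vehicle and 691 to 779.7 FPKM after treatment, with overlap.

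The 22 carriers of nucleosides and nucleotide sugars were the nearest to the background, with 5 higher, 3 lower and 14 not past the threshold (36.4% called, against 40.2% of all genes). All 8 calls were in the Slc35 family of Golgi and endoplasmic reticulum carriers. Slc35d1, which carries UDP-glucuronic acid and UDP-N-acetylgalactosamine for chondroitin sulfate synthesis, was at 5.48, 5.89 and 6.26 FPKM with vehicle and 16, 26.2 and 23.9 FPKM after treatment (log2 fold change 1.72 with SE 0.18, adjusted p = 0.0013). Slc35e4, an orphan of the family and a member only through the treated group, was at 0.927, 0.742 and 1.17 FPKM and 4.67, 7.54 and 9.18 FPKM (log2 fold change 2.03, adjusted p = 0.0016). Neither gene's groups overlapped. The Golgi GDP-fucose carrier Slc35c1 rose from 64.8 ± 2.92 to 128 ± 31.9 FPKM, the UDP-N-acetylglucosamine carrier Slc35a3 from 71.1 ± 3.78 to 102 ± 7.77 FPKM and Slc35d2 from 3.74 ± 0.577 to 9.82 ± 3 FPKM (adjusted p = 0.0086, 0.004 and 0.007). The sulfate donor (PAPS) carriers Slc35b2 and Slc35b3 both fell by 0.36 in log2 terms (adjusted p = 0.012 and 0.027), and the CMP-sialic acid carrier Slc35a1 fell by 0.22 (adjusted p = 0.0455). The calls of Slc35b3 and Slc35a1 were lost when any 1 library other than arachidonic acid replicate 1 was left out (adjusted p = 0.073 to 0.15). No equilibrative nucleoside carrier (Slc29a1 to Slc29a4) passed, and Slc29a1 was at 73.2 ± 2.60 and 63.8 ± 7.37 FPKM (adjusted p = 0.12). Without arachidonic acid replicate 1, Slc29a1, Slc29a2 and Slc29a3 were lower (adjusted p = 0.0036, 0.035 and 0.017).

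Of the 12 carriers of vitamins, choline and haem, 6 were higher, none was lower in the fit to all libraries and 6 did not pass (median log2 fold change 0.22). Without arachidonic acid replicate 1, 8 were higher and 2 lower, the latter being the choline carrier Slc44a1 and the proton-coupled folate carrier Slc46a1. Slc44a2, a choline-like carrier, was at 9.30, 7.91 and 8.08 FPKM with vehicle and 18.9, 34.4 and 32.8 FPKM after treatment (log2 fold change 1.61 with SE 0.22, adjusted p = 0.0029). Slc44a4, which carries thiamine pyrophosphate, rose from 20.6 ± 0.372 to 34.8 ± 3.74 FPKM (adjusted p = 0.0024). The sodium-coupled vitamin C carrier Slc23a2 was at 17.9, 19.9 and 20.3 FPKM and 30.1, 40.8 and 31.98 FPKM (log2 fold change 0.78, adjusted p = 0.0044). Every treated library was above every vehicle library in these genes. The riboflavin carrier Slc52a3 rose from 5.58 ± 0.589 to 11.3 ± 2.95 FPKM and the lysosomal haem carrier Slc48a1 from 18.7 ± 0.931 to 31.1 ± 9.20 FPKM (adjusted p = 0.013 and 0.041), and the thiamine carrier Slc19a2 rose by 0.19 on the log2 scale (adjusted p = 0.042). Slc46a1, the intestinal folate carrier, was at 11.8, 13.1 and 11.8 FPKM and 17.2, 10.6 and 7.24 FPKM with overlap, and the reduced folate carrier Slc19a1 at 93.2 ± 6.09 and 107 ± 5.58 FPKM (adjusted p = 0.7 and 0.064). The calls of Slc19a2 and Slc48a1 were lost when any 1 library other than arachidonic acid replicate 1 was left out, and that of Slc52a3 without vehicle replicate 1 or 2 (adjusted p = 0.0503 to 0.15).

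Organic cation and anion carriers held 6 higher and 4 lower members among 17, and 7 did not pass (median log2 fold change 0.18). Of the 14 with a mean of at least 1 FPKM in both groups, 5 were higher and 3 lower. Slco2b1 (OATP2B1), an uptake carrier of steroid conjugates and drugs, was at 16.6, 24.1 and 22.3 FPKM with vehicle and 9.998, 0.229 and 0.157 FPKM after treatment (log2 fold change -3.12 with SE 0.83, adjusted p = 0.025). Slc6a4, the serotonin reuptake carrier that enterocytes express, was at 18.3, 18.6 and 24.3 FPKM and 5.79, 0.703 and 0.674 FPKM (log2 fold change -2.98 with SE 0.53, adjusted p = 0.0065). In both genes replicate 1 lay between the vehicle range and the other treated libraries, which were under 1 FPKM. Slc17a4 and Slc17a1, organic anion and phosphate carriers, fell to 7.81 ± 5.28 FPKM from 21.4 ± 2.76 and to 0.606 ± 0.496 from 2.11 ± 0.726 FPKM (adjusted p = 0.02 and 0.028). Slc17a1 was a member only through the vehicle group. In the Slc22 family, 5 of 7 members were higher and none lower. The carnitine carrier Slc22a5 (OCTN2) was at 15.8, 16.7 and 16.4 FPKM and 32.9, 32.9 and 34.2 FPKM, with replicate 1 at the level of the other treated libraries (log2 fold change 0.99 with SE 0.06, adjusted p = 0.00041). Its neighbour in the family, the ergothioneine carrier Slc22a4 (OCTN1), was at 2.11, 2.39 and 2.66 FPKM and 3.83, 16.8 and 13.5 FPKM, with replicate 1 close to the vehicle libraries (log2 fold change 1.67, adjusted p = 0.028). Slc22a18 and Slc22a23 rose from 19.3 ± 0.343 to 31.9 ± 2.95 FPKM and from 19.4 ± 0.652 to 34.7 ± 4.01 FPKM, and the proton-coupled organic cation exporter Slc47a1 (MATE1), a member only through the treated group, from 0.908 ± 0.0705 to 2.73 ± 0.656 FPKM (adjusted p = 0.002, 0.002 and 0.0053). The prostaglandin carrier Slco2a1, the member with arachidonic acid products as its substrate, was at 0.613, 0.490 and 0.749 FPKM and 0.475, 2.98 and 1.54 FPKM. Its groups overlapped through replicate 1 (log2 fold change 0.61, adjusted p = 0.2). Slco2a1 was a member only through the treated group. It passed as higher only in the fit without arachidonic acid replicate 1 (0.98, adjusted p = 0.0043). The calls of Slco2b1, Slc17a4 and Slc22a4 were lost when any 1 library other than arachidonic acid replicate 1 was left out, and that of Slc17a1 without any of these except vehicle replicate 1 (adjusted p = 0.056 to 0.093).

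The remaining 17 members, with orphan or other substrates and including 4 genes that carry the symbol without being carriers, held 6 higher and 3 lower (median log2 fold change 0.03). Slc45a3, a sugar carrier homologue known from prostate, was at 0.208, 0.279 and 0.0756 FPKM with vehicle and 2.31, 5.25 and 4.99 FPKM after treatment, and it was a member only through the treated group (log2 fold change 2.07 with SE 0.26, adjusted p = 0.0024). The orphans Slc35f5, Slc35f6 and Slc23a3 rose from 30.1 ± 1.19 to 72.2 ± 17.3, from 12.1 ± 0.291 to 20.3 ± 1.33 and from 1.299 ± 0.221 to 3.18 ± 0.133 FPKM (adjusted p = 0.0034, 0.0015 and 0.0033), and Slc35f2 and Slc23a4 fell by 0.72 and 0.56 in log2 terms (adjusted p = 0.039 and 0.028). Slc9a3r1 (NHERF1), the scaffold that anchors brush border carriers, rose from 88.6 ± 4.13 to 112 ± 10.8 FPKM and its relative Slc9a3r2 fell from 2.10 ± 0.0877 to 1.44 ± 0.0748 FPKM (adjusted p = 0.02 and 0.048). The calls of Slc35f2 and Slc9a3r2 were lost when any 1 library other than arachidonic acid replicate 1 was left out, and those of Slc23a4, Slc45a4 (log2 fold change 0.38) and Slc9a3r1 without some of these (adjusted p = 0.067 to 0.14). Slc9a3r1 lost its call without vehicle replicate 2 or 3, Slc23a4 without any except arachidonic acid replicate 3, and Slc45a4 without any except vehicle replicate 3.

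The members belong to 41 families by symbol, 32 with at least 2 members, and in 14 of these 32 there was at least 1 called gene in each direction. The Slc9 family is among the 14 only through the scaffold gene Slc9a3r2, and no Slc9 carrier was called lower. Over all tested genes 20.8% were higher and 19.4% lower, and no comparison with families of other genes was made. All calls had 1 direction in, among others, the Slc22 family (5 higher of 7 members), the Slc38 family (3 of 6) and the Slc44 family (2 of 4). The Slc7 family held 2 higher and 5 lower, the Slc6 family 3 and 3, the Slc5 family 3 and 2, the Slc39 family 6 and 3, and the Slc16 family 4 and 2. In the Slc3 family, the heavy chains Slc3a2 and Slc3a1 described above were called in opposite directions.

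**Figure D3:**
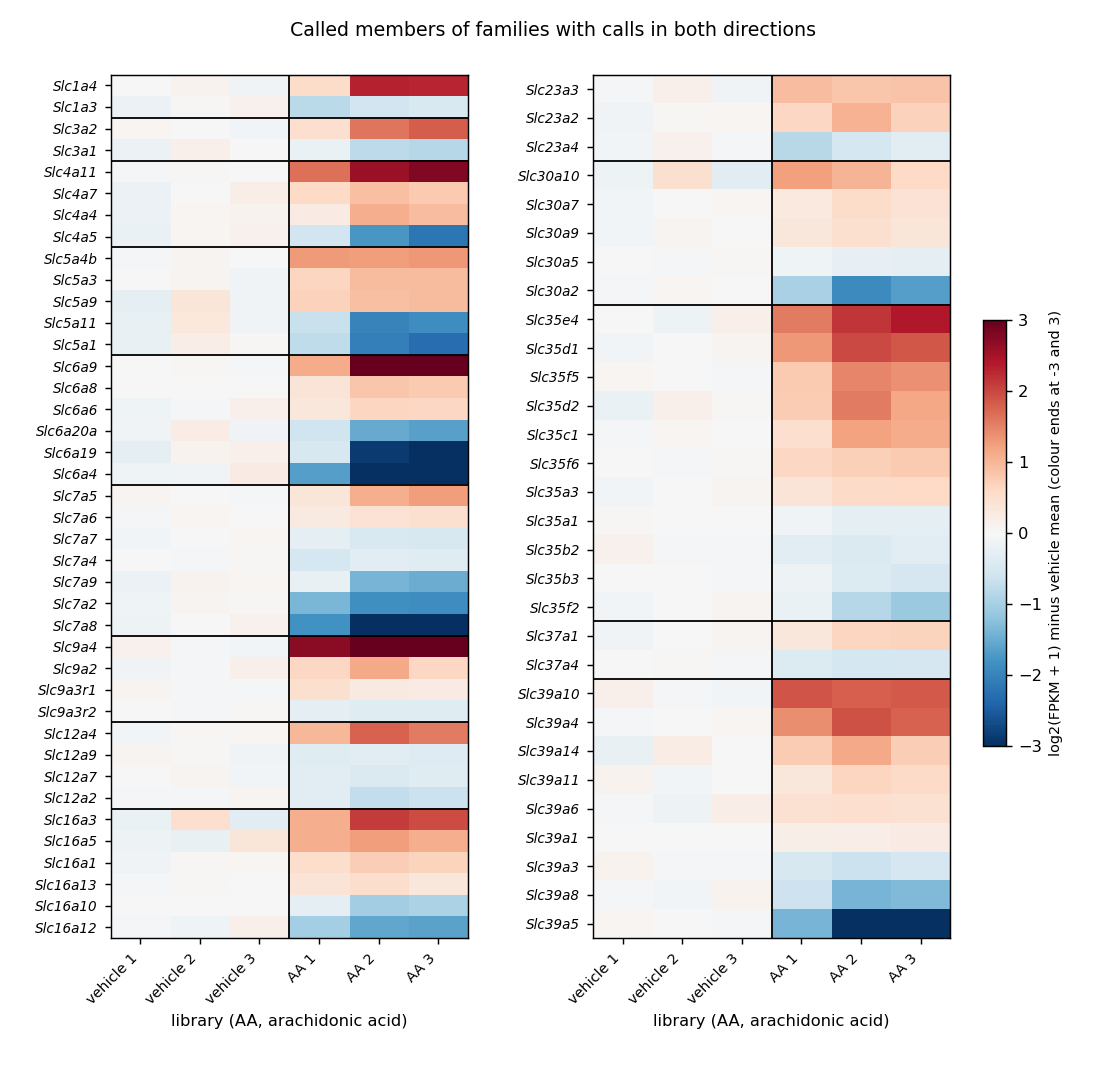
Level of the 70 called members of the 14 families with calls in both directions, each row a gene and each column a library, coloured by log2(FPKM + 1) minus the vehicle mean (colour ends at -3 and 3) with lines between families and between groups. The Slc9 family is among them only through the scaffold gene Slc9a3r2. Red and blue rows stand together within each family, as Slc39a10 (1.84) and Slc39a5 (-2.56) do in Slc39, and arachidonic acid replicate 1 is paler than replicates 2 and 3 in rows such as Slc7a8 and Slc6a9.

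Summed FPKM describes the RNA of each class per library, and the total FPKM of the libraries differed. Carboxylate carriers summed to 157.9, 191.7 and 171.1 FPKM with vehicle and 265.2, 400.3 and 358.9 FPKM after treatment, led by Slc16a3. The 4 fatty acid carriers summed to 111.9, 116.3 and 106.7 FPKM and to 106.1, 80.6 and 77.9 FPKM, the treated libraries being lower, replicate 1 by less than 1 FPKM. As shares of total FPKM their groups overlapped, at 0.0137% to 0.0151% with vehicle and 0.0141%, 0.0108% and 0.0103% after treatment. Vitamin, choline and haem carriers summed to 342, 355.8 and 368.7 FPKM and to 415, 446.8 and 432.2 FPKM, without overlap. Inorganic ion carriers, with calls in both directions, summed to 720.5, 768.5 and 775.4 FPKM and to 750.6, 714 and 697 FPKM, and sugar carriers to 338.5, 390.2 and 351.6 FPKM and to 385.4, 469.1 and 441 FPKM, with overlap in both classes. As shares of total FPKM the sugar carriers did not overlap, at 0.0424% to 0.0505% with vehicle and 0.0511% to 0.0632% after treatment.

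**Figure D4:**
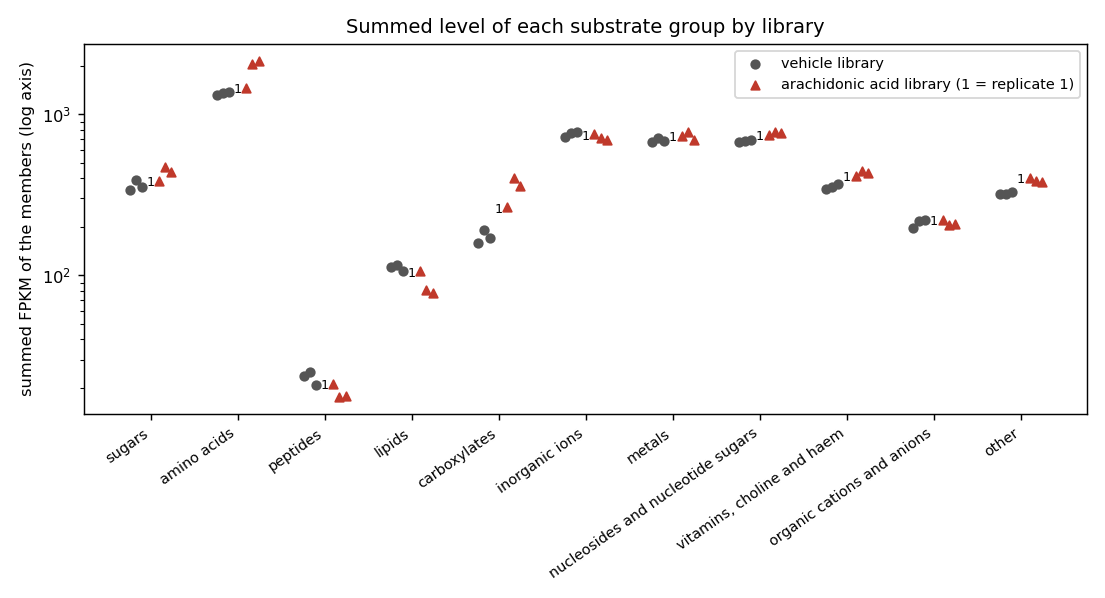
Summed FPKM of the members of each substrate group (log axis) in each library, with grey circles for vehicle and red triangles for arachidonic acid libraries (replicate 1 numbered); the bile acid group, with 1 member under 3 FPKM, is left out. The treated libraries are above the vehicle libraries for amino acids (1458 to 2149 against 1318 to 1376 FPKM) and carboxylates (265.2 to 400.3 against 157.9 to 191.7 FPKM) and below them for lipids. As shares of total FPKM, which are not shown, the lipid groups overlapped and the sugar groups did not.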

How the data were processed

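Per the values themselves, the authors deposited FPKM, a unit that the labels leave unnamed. The submitters' processing notes list the programs featureCounts 1.5.0-p3, HISAT2 2.0.5 and StringTie 1.3.3b with no roles. The sources used here do not name the authors' genome build, annotation or strand setting, so antisense, overlapping and near-identical genes are uncertain: exons of 19 members overlap another gene at 1 FPKM or more in the GENCODE M21 annotation. Symbols and transcript lengths came from that annotation and matched 53274 of 53953 rows. FPKM multiplied by length was divided by a step fitted in each library, and that step gave the depth. The quotient fell within 0.1 of a whole number for 96.3% to 96.7% of values under 100 fragments.

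Values were taken as log2(FPKM + 1), rows with a mean of at least 1 FPKM were kept, and limma 3.58.1 (R 4.3.3) fitted the group with a variance trend over 12913 rows. P-values were two-sided, adjusted by Benjamini-Hochberg over all tested rows, with a threshold of 0.05. Fold changes are on this scale and understate those of low genes. The plan also held a count model for the case of count files, which was not needed. The main fit was also run on simulated data, with the same dispersion in every library and no treated library set apart. That run cannot show how the fit handles a library such as arachidonic acid replicate 1. Tables and figures used Python 3.11.15 with pandas 2.3.3 and matplotlib 3.10.9.

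The members, the substrate groups, the lists of partners and markers and the naming rule were chosen with earlier results of these data known. The rule named, in each substrate group, the 2 members with the highest mean and up to 4 per direction with the smallest p among those past the threshold, plus well-known intestinal carriers. It gave 94 members, and the other members named were chosen after their values were seen. Groups were assigned by family. Slc4a1ap and Slc7a6os were moved to the group of other members, beside Slc9a3r1 and Slc9a3r2, since these 4 are not carriers. The alternatives were other filters, pseudocounts, scalings, a replicate block, limma-voom on the recovered fragments, and leaving out each library. Some genes of the partner list are not reported here.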

Additional observations from a re-analysis of the deposited data

How the results depend on the processing

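No member called in 1 direction was called in the other under any of the 14 alternatives. Among members, 62 higher and 36 lower became 68 and 31 after rescaling to TPM, 60 and 37 with limma-voom on recovered fragments, 63 and 37 with median-of-ratios scaling, 63 and 35 with a pseudocount of 0.1, 58 and 42 with quantile normalization, and 53 and 28 of the 138 with a mean of at least 5 FPKM. With no filter on low values (28021 rows tested) the counts were 54 and 19. The calls lost with it were those of 25 members, 21 of which had also lost them when any 1 library other than arachidonic acid replicate 1 was left out. Of the lost calls, TPM rescaling ended those of Slc3a1, Slc43a2, Slc30a5, Slc35a1 and Slc9a3r2, limma-voom those of Slc35a1, Slc22a4 and Slc48a1, quantile normalization those of Slc20a2, Slc39a1, Slc19a2 and Slc48a1, and the pseudocount that of Slc9a3r2. Leaving out 1 library gave 47 to 71 higher and 15 to 57 lower members, and for all genes 1721 to 3544 higher (2690 with all libraries) and 1270 to 4176 lower (2502). For the lower members, the lowest count came without vehicle replicate 2 and the highest without arachidonic acid replicate 1.

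The labels number the libraries 1 to 3 in both groups without saying that a number is shared. Deviations of same-numbered libraries from their group means correlated at -0.0811, 0.21 and -0.0623, and those of other pairs at -0.177 to 0.19, so the numbers were not taken to pair the libraries. With the replicate number as a block, 60 members were higher and 27 lower, and 2263 and 1998 of all genes. The block ended the calls of 12 members, the higher Slc20a2, Slc39a1 and Slc19a2 and the lower Slc3a1, Slc43a2, Slc6a19, Slc7a9, Slc30a5, Slc35a1, Slc17a1, Slc35f2 and Slc9a3r2 (adjusted p = 0.057 to 0.13), and left 7 of the 11 lower amino acid carriers. Depth, at 35.6 to 50.8 M fragments, and the 3 libraries of each group both limit the precision.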

Other observations

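Some solute carriers with known roles in the intestine lay under 1 FPKM on average and were not tested, so their values are given without a comparison. Slc26a9, an anion carrier of gastric and airway epithelium chosen after its values were seen, was listed at 0 in all vehicle libraries and at 0.0401, 0.573 and 0.577 FPKM in the arachidonic acid libraries. The thiamine carrier Slc19a3 had 0, 0.0512 and 0.0121 FPKM with vehicle and 0.0921, 1.20 and 0.520 FPKM after treatment. For the sodium-phosphate cotransporter Slc34a2 the values were 0.349, 0.295 and 0.327 FPKM and 1.36, 0.556 and 0.565 FPKM, with arachidonic acid replicate 1 the highest. The concentrative nucleoside carrier Slc28a2 had 1.53, 1.25 and 0.655 FPKM with vehicle and 0.858, 0.306 and 0.278 FPKM after treatment, and the groups overlapped. The anion exchanger Slc26a6 stayed at or under 0.0503 FPKM in every library.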
